A study of Mus musculus with 52 samples.

Results

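B2m, Ifitm3, Bst2 and Ifi35 are 4 genes of the interferon response and of antigen presentation, and they were followed here across mouse embryonic stem (ES) cell lines. They were chosen as the probes whose platform symbol is one of these 4 names, which gave 4 of 20794 probes and 4 of 9030 named genes, with 1 probe each. The 4 names were picked from earlier results on the log2 ratios of these same arrays, in which each gene had passed the threshold in some comparison. Their values are therefore a description and not a test of the choice. The arrays compared 7 ES lines in pairs, in 13 comparisons of 4 two-colour cDNA arrays each. The lines were HM-1 NT, #4 (B6), B6NT, B6PGA, PDCUMNT, ZFCUMNT and HM-1, an ES line long used for gene targeting. Per the series text the donor nuclei came from different cell sources, and an unnamed pair made from cumulus cells, the somatic cells that surround the oocyte, differs in cloning method. The labels give no genotype, strain, passage or culture condition, and leave the abbreviations in the line names unexplained. They also do not say whether the 4 arrays of a comparison came from separate cultures or RNA extracts, so every error below is a spread between arrays, which may be technical.

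Interferons are secreted signals of virus infection. They act through cell surface receptors, Janus kinases and STAT and IRF transcription factors, which bind interferon-stimulated response elements (ISRE) and gamma-activated sites (GAS) in the promoters of target genes. Undifferentiated ES cells are known for a weak interferon response and for low surface MHC class I. B2m encodes beta-2 microglobulin, the light chain without which MHC class I molecules do not reach the surface to present peptides. Ifitm3 encodes a membrane protein that restricts the entry of viruses and is also known as fragilis, a marker of mouse primordial germ cells. Bst2 encodes tetherin, which holds budding virus particles at the cell surface. Ifi35 encodes a leucine zipper protein that, in human cells, binds the interferon-induced protein NMI.

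The sequences around the transcription starts are shown because the ISRE is the element through which interferon acts on such genes. They are RefSeq sequences of GRCm38.p6, matched by symbol for 4 of 4 genes, and capitals mark the ISRE core, which is GAAA, then 2 bases of any kind, then GAAA again. The genome build of the array probes is not given in the sources used here. B2m (Entrez gene 12010) lies at chr2:122147687-122153082, Ifitm3 (66141) at chr7:141009590-141010744, Bst2 (69550) at chr8:71534255-71537472 and Ifi35 (70110) at chr11:101448412-101458701. The 150 bases before each start are these.
B2m, chr2:122147537-122147686, plus strand: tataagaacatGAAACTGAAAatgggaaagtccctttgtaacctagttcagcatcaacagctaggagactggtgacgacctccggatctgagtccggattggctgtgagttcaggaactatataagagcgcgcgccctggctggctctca
Ifitm3, chr7:141010745-141010894, minus strand: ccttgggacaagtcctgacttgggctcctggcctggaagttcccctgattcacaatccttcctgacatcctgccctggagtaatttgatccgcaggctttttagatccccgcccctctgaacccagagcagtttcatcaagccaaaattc
Bst2, chr8:71537473-71537622, minus strand: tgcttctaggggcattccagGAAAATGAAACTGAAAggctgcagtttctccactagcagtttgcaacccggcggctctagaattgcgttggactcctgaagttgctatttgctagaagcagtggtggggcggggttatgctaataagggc
Ifi35, chr11:101448262-101448411, plus strand: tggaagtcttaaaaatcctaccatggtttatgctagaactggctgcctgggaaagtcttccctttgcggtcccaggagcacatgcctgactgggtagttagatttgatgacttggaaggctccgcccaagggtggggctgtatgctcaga
Ifitm3, first 30 bases of the transcript, chr7:141010715-141010744, minus strand: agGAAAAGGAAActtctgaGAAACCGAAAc

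Windows of 300 bases (250 before and 50 after the start) were searched on both strands for this ISRE core and for the GAS core TTCNNNGAA. B2m had 1 ISRE core, at -139 to -130 from the start. Bst2 had 2 that overlap by a few bases, at -130 to -121 and at -124 to -115, and a GAS core at -136 to -128 that overlaps the first of them. In Ifitm3 the matches lay in the first bases of the transcript, with ISRE cores at 3 to 12 and 20 to 29 and a GAS core at 14 to 22 that overlaps the second ISRE core. Ifi35 had no ISRE core in this window and a GAS core at 8 to 16. Of 27025 mouse promoters, 943 (3.49%) held the ISRE core and 2288 (8.47%) the GAS core. Among 73 other interferon and antigen presentation genes with a promoter sequence, 18 (24.7%) and 13 (17.8%) did. A match describes the letters and does not show that a factor binds.

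Values are log2 ratios of one line over another, turned by the dye labels. In "B6PGA against HM-1" a positive value means more RNA in B6PGA if the deposited ratio is Cy5 over Cy3. The sources used here do not state the numerator dye, and the reverse would change the sign of all values together. In each comparison the line given first here was in Cy5 on arrays 1 and 2 and in Cy3 on arrays 3 and 4. Unturned ratios of opposite dye orientation should run against each other, yet their mean rank correlation was above 0 in 12 of 13 comparisons. It was 0.498 in #4 (B6) against HM-1, 0.23 in HM-1 NT against HM-1 and 0.169 in ZFCUMNT against HM-1 NT, so the direction of values in these comparisons rests on the labels alone. It ran from -0.0114 to 0.108 in the others, so the ratios over all probes do not clearly show the direction there either. In the comparisons where one of the 4 genes passed the threshold it was 0.0083 (B6PGA against HM-1), 0.0476 (PDCUMNT against HM-1) and 0.0795 (ZFCUMNT against PDCUMNT). In the last of these single pairs ran from -0.0077 to 0.192, and arrays 3 and 4, which share an orientation, had a rank correlation of -0.0012, against 0.109 to 0.605 for the same arrays of the other comparisons. Arrays had from 17620 to 20200 measured probes. The ratios hold no absolute levels, so how strongly a line expressed a gene, and whether the lines carried ES cell markers at all, could not be read from them.

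Over all 13 comparisons 51 values of the 4 genes were tested and 4 passed an adjusted p of 0.05 (7.84%), against 1096 of 205999 values over all features (0.532%). The genes were picked with these results known, so nothing is read from that difference. Each gene passed once: B2m and Ifitm3 in B6PGA against HM-1, where 0.494% of all features were called, Bst2 in PDCUMNT against HM-1 (1.14% of all features) and Ifi35 in ZFCUMNT against PDCUMNT (0.763%). All 4 of these values were positive. Of the 51 values, 21 had all 4 arrays positive, 4 had all 4 negative and 26 had arrays of both signs. In the 24 values against HM-1, 15 had all 4 arrays positive and 2 all 4 negative. These share HM-1, always the line given second, so they are not separate results. Over all features 7.5% of values had all 4 arrays positive and 6.84% all 4 negative.

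**Figure D1:**
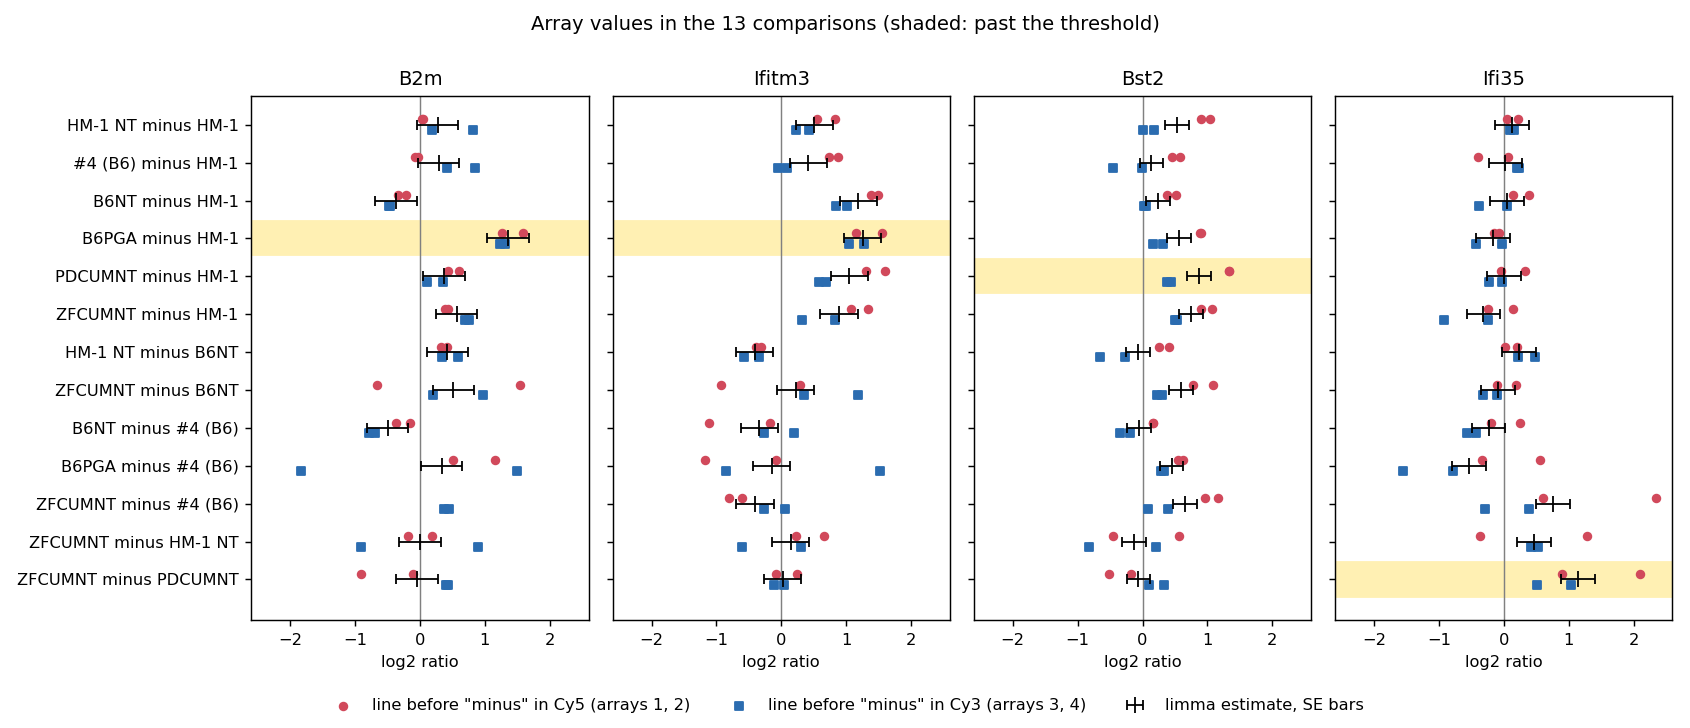
Log2 ratio of each array (horizontal axis) for the 4 genes in the 13 comparisons (rows, each a line minus another). Circles have the row's first line in Cy5, squares in Cy3, and black bars give the limma estimate with its SE. Shaded rows passed the threshold: B2m and Ifitm3 in B6PGA minus HM-1, Bst2 in PDCUMNT minus HM-1 and Ifi35 in ZFCUMNT minus PDCUMNT. In most rows of Bst2 the circles lie to the right of the squares.

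B2m, the MHC class I light chain, was highest in B6PGA. Its values for B6PGA against HM-1 were 1.27, 1.59, 1.24 and 1.31 on the 4 arrays, an estimate of 1.35 ± 0.32 (SE of the joint fit, n = 4 arrays) and a ratio of 2.55. The 4 arrays lay close together in both dye orientations, and leaving out any 1 of them gave 1.26 to 1.40, none of which passed. For B6PGA against #4 (B6) the arrays gave 0.51, 1.16, 1.49 and -1.83, so that 1 array of 4 ran the other way and the estimate was 0.33 ± 0.32. B6NT lay at the other end. All 4 arrays were negative for B6NT against HM-1 (-0.34, -0.21, -0.48 and -0.46) and for B6NT against #4 (B6) (-0.15, -0.37, -0.78 and -0.69), and all 4 were positive for HM-1 NT against B6NT (0.33, 0.42, 0.34 and 0.59). The estimates of these were -0.37, -0.50 and 0.42, each ± 0.32, and none passed. ZFCUMNT against HM-1 was at 0.56 (arrays from 0.38 to 0.76), PDCUMNT against HM-1 at 0.37 (0.11 to 0.60) and HM-1 NT against HM-1 at 0.27 (0.03 to 0.82), all with 4 positive arrays and none past the threshold. B2m was measured on 50 of 52 arrays. In ZFCUMNT against #4 (B6) arrays 1 and 2 had no value, the others gave 0.36 and 0.45, and the comparison was not tested.

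Ifitm3, the antiviral membrane protein, was lowest in HM-1. The 6 comparisons with HM-1 share that line and are given side by side for this reason. B6PGA against HM-1 had 1.55, 1.15, 1.04 and 1.28, an estimate of 1.26 ± 0.29 (SE, n = 4 arrays) and a ratio of 2.39. Without any 1 of these arrays the estimate was 1.17 to 1.32 and did not pass. B6NT against HM-1 had 1.49, 1.39, 1.01 and 0.85 (1.18 ± 0.29) and PDCUMNT against HM-1 had 1.60, 1.31, 0.69 and 0.59 (1.04 ± 0.29), neither past the threshold over all features. ZFCUMNT against HM-1 had an estimate of 0.89, HM-1 NT against HM-1 0.51 and #4 (B6) against HM-1 0.42, the last with arrays on both sides of 0 (-0.05 to 0.88). Outside the comparisons with HM-1 the estimates were smaller, from -0.41 to 0.22. Only HM-1 NT against B6NT had 4 arrays of 1 sign there (-0.39, -0.31, -0.58 and -0.35). Some of these estimates average arrays that lay far apart. They ran from -1.169 to 1.515 in B6PGA against #4 (B6) and from -0.933 to 1.183 in ZFCUMNT against B6NT. ZFCUMNT against PDCUMNT was near 0 on every array, from -0.12 to 0.24.

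Bst2, tetherin, had its highest value in PDCUMNT against HM-1. The arrays gave 1.34, 1.34, 0.38 and 0.44, an estimate of 0.87 ± 0.18 (SE, n = 4 arrays) and a ratio of 1.83. The arrays with PDCUMNT in Cy5 averaged 1.34 and those with it in Cy3 0.41, and a gap of this direction ran through the gene's data. Without array 1, and likewise without array 2, the estimate was 0.80 and did not pass. Arrays 1 and 2 averaged above arrays 3 and 4 in 12 of 13 comparisons, and the fitted dye term was 0.27 ± 0.05, while all features had a median of 0.09. In size it lay at the 58.1st percentile of all features' dye terms, near the middle. The dye term was 0.19 for Ifi35, 0.03 for Ifitm3 and -0.02 for B2m. ZFCUMNT against HM-1 had 1.08, 0.90, 0.51 and 0.53 (0.75 ± 0.18), ZFCUMNT against #4 (B6) 0.96, 1.17, 0.40 and 0.08 (0.65) and ZFCUMNT against B6NT 1.09, 0.78, 0.22 and 0.29 (0.60). These had 4 positive arrays each and did not pass. Against HM-1, B6PGA was at 0.57, HM-1 NT at 0.54, B6NT at 0.24 and #4 (B6) at 0.14. The values of B6PGA against #4 (B6) were the tightest of the gene, from 0.29 to 0.62 with an estimate of 0.45.

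Ifi35, the NMI partner, passed in ZFCUMNT against PDCUMNT, a pair of lines with CUM in both names. The arrays gave 2.11, 0.90, 1.04 and 0.51, an estimate of 1.14 ± 0.26 (SE, n = 4 arrays) and a ratio of 2.2. All 4 were positive, with a spread of 0.68 (SD). Without array 1 the estimate was 0.87 and without array 3 it was 1.11, and neither passed. ZFCUMNT against #4 (B6) had 0.61, 2.35, 0.39 and -0.30 (0.76 ± 0.26) and ZFCUMNT against HM-1 NT had -0.36, 1.28, 0.53 and 0.42 (0.47 ± 0.26). In neither did the arrays keep to 1 side of 0. ZFCUMNT against HM-1 had 0.14, -0.24, -0.92 and -0.24, an estimate of -0.31 ± 0.26 with the opposite sign. The 6 comparisons with HM-1 ran from -0.31 to 0.13. B6PGA against #4 (B6) was at -0.53, with arrays from -1.56 to 0.56.

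The design also gives each called difference through a further line, from arrays that the direct value does not use. The fit's dye term and spread are shared, so the sums are a description. For Bst2, PDCUMNT against HM-1 was 0.87 ± 0.18 directly and 0.82 ± 0.26 through ZFCUMNT. For B2m, B6PGA against HM-1 was 1.35 ± 0.32 directly and 0.62 ± 0.45 through #4 (B6), a gap within 2 SE (0.73 ± 0.55). For Ifitm3 the same difference was 1.26 ± 0.29 directly and 0.27 ± 0.40 through #4 (B6), a gap of 0.99 ± 0.50 that lies at the edge of 2 SE. The route through #4 (B6) uses #4 (B6) against HM-1, where unturned ratios of opposite dye orientation had a rank correlation of 0.498. Its other part, B6PGA against #4 (B6), had arrays from -1.169 to 1.515 for Ifitm3 and from -1.828 to 1.494 for B2m. For Ifi35, ZFCUMNT against PDCUMNT was 1.14 ± 0.26 directly and -0.32 ± 0.37 through HM-1, so the routes had opposite signs and differed by 1.46 ± 0.45. Around closed triangles of comparisons the values added up to within 2 SE in 7 of 7 triangles for B2m, 8 of 9 for Ifitm3, 8 of 9 for Bst2 and 5 of 9 for Ifi35.

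**Figure D2:**
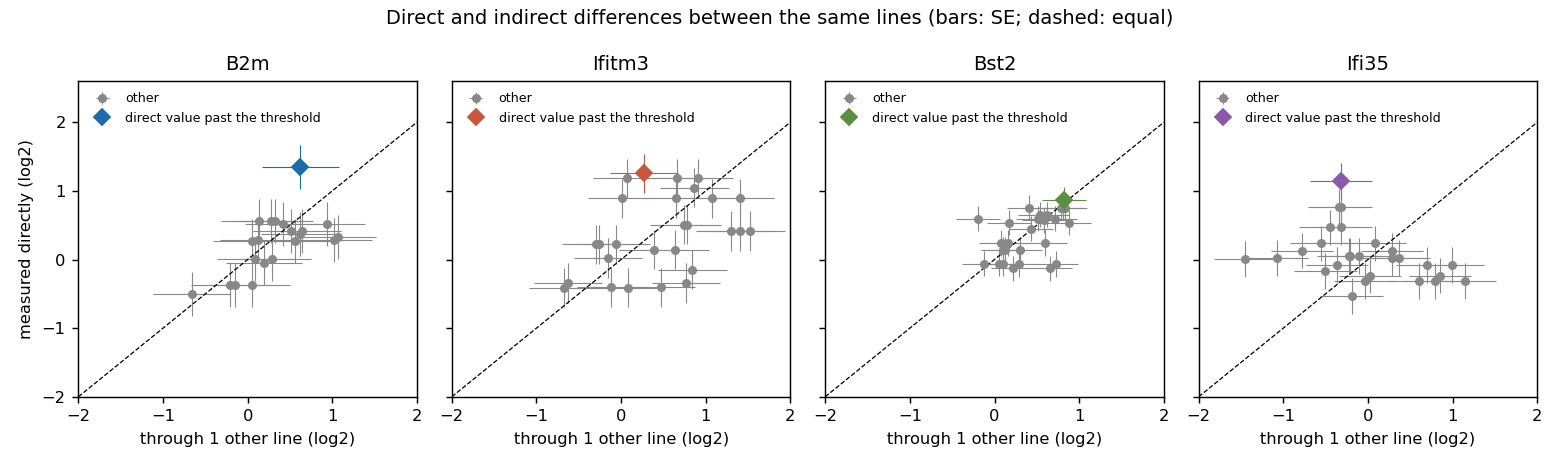
Differences between the same lines measured directly (vertical axis, log2) and summed through 1 other line (horizontal axis, log2), with SE bars and the line of equality dashed. Coloured diamonds are the direct values that passed the threshold. The Bst2 diamond (0.87 directly, 0.82 indirectly) lies on the line, and the Ifi35 diamond (1.14 and -0.32) lies far above it.

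All 13 comparisons were joined into 1 relative level per line, given as the difference from the mean of the 7 lines. B2m ran over 1.20 on the log2 scale, a ratio of 2.3. From low to high it was at -0.51 ± 0.14 in B6NT, -0.35 ± 0.11 in HM-1, -0.03 in HM-1 NT, 0.04 in #4 (B6), 0.08 in PDCUMNT, 0.09 in ZFCUMNT and 0.69 ± 0.20 in B6PGA (SE). Of its neighbours in this order only B6PGA and ZFCUMNT differed by over 2 SE. Ifitm3 ran over 1.07. It was at -0.76 ± 0.10 in HM-1, -0.20 in HM-1 NT, 0.09 in ZFCUMNT, 0.11 in B6NT, 0.18 in PDCUMNT, 0.27 in #4 (B6) and 0.31 in B6PGA. Each of the other 6 lines lay over 2 SE above HM-1, and among neighbours only HM-1 NT and HM-1 were that far apart.

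Bst2 ran over 0.83 on the same scale, from -0.44 ± 0.07 in HM-1 through -0.27 in #4 (B6), -0.18 in B6NT, 0.08 in HM-1 NT, 0.15 in B6PGA and 0.28 in ZFCUMNT to 0.38 ± 0.12 in PDCUMNT. Only the neighbours HM-1 NT and B6NT differed by over 2 SE. Ifi35 had the narrowest range, 0.74, from -0.36 ± 0.19 in PDCUMNT and -0.30 in B6PGA through 0.04 in HM-1, 0.05 in #4 (B6), 0.07 in B6NT and 0.13 in HM-1 NT to 0.38 ± 0.12 in ZFCUMNT. None of its neighbours differed by over 2 SE, and 3 of 21 pairs of lines did, against 12 of 21 for Bst2, 11 of 21 for B2m and 7 of 21 for Ifitm3. The genes therefore did not order the lines alike. The line levels also use the arrays of each direct value, so some closeness between them is built in. Direct values and those of the line levels had the same sign in 40 of 51 cases and lay within 2 SE (of the direct value) in 49 of 51. The exceptions were Ifitm3 in #4 (B6) against HM-1 (0.42 directly, 1.02 from the line levels) and Ifi35 in ZFCUMNT against HM-1 (-0.31 and 0.34).

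**Figure D3:**
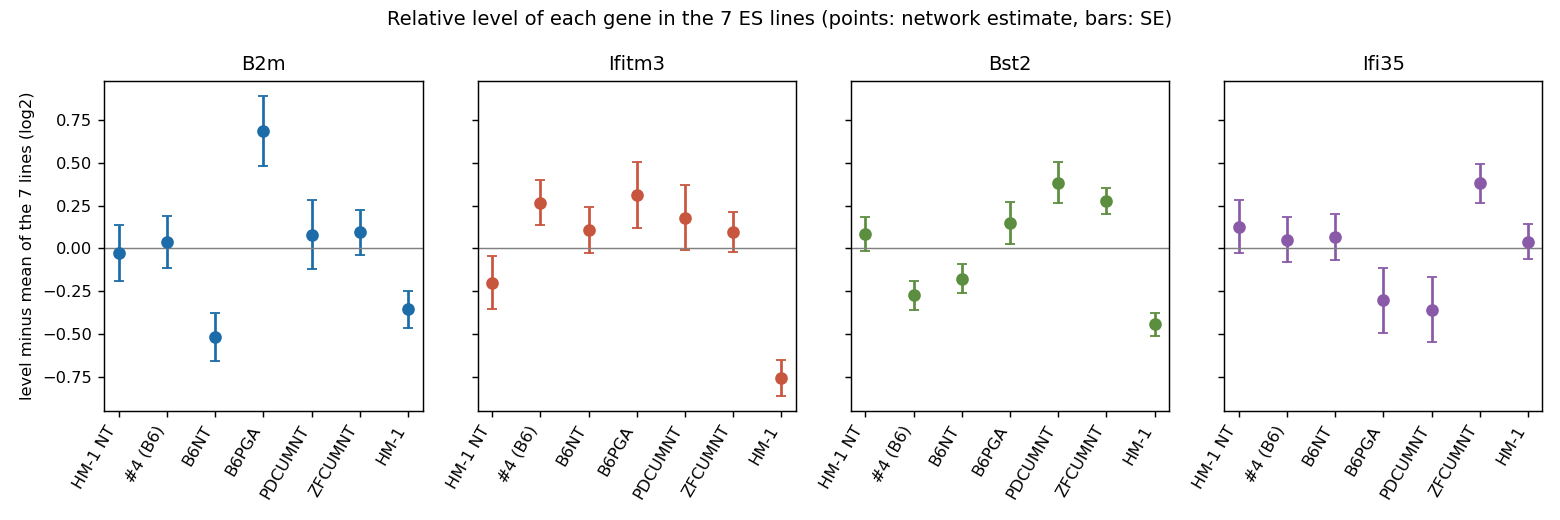
Relative level of the 4 genes in the 7 ES lines (log2, minus the mean of the 7 lines), with SE bars. Levels were estimated from all 52 arrays, or for B2m from the 50 that measured it. HM-1 is lowest for Ifitm3 (-0.76) and Bst2 (-0.44), B6NT is lowest for B2m (-0.51) and PDCUMNT for Ifi35 (-0.36).

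The other genes of the pathway showed little that passed. The 6 lists held 85 further genes with a probe, and 6 of their 993 values were called (0.604%), close to the 0.532% of all features; 5 were positive and 1 negative. No probe carried the symbol of a listed interferon, so the ligands themselves were not analysed here. Of 16 MHC class I and antigen processing genes 1 was called. Psme1, a subunit of the proteasome activator PA28, was at 1.15 ± 0.23 in ZFCUMNT against PDCUMNT (limma, Benjamini-Hochberg adjusted p = 0.00996), and at 0.85 without array 4, where it did not pass. None of the 7 MHC class II genes passed in 81 limma tests, 6 of which had an unadjusted p under 0.05. Of 19 receptor and signalling genes 1 passed, the interferon gamma receptor gene Ifngr1 at 1.38 ± 0.35 in ZFCUMNT against PDCUMNT (adjusted p = 0.0462). Its arrays ran from -0.22 to 3.90, and the call was lost without array 1 (0.70) or array 3 (1.29).

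Of 34 interferon-induced effector genes 3 passed, all with positive values. Trim25, a ubiquitin ligase that activates the RNA sensor RIG-I, was at 1.24 ± 0.21 in ZFCUMNT against PDCUMNT, with arrays at 1.13, 2.12, 0.62 and 1.10 (limma, Benjamini-Hochberg adjusted p = 0.00177). It passed without each of these arrays in turn (1.03 to 1.37). On other arrays Trim25 was at 0.28 in ZFCUMNT against HM-1 and at 0.25 in PDCUMNT against HM-1, and neither passed. Samhd1, which degrades deoxynucleotides, was at 2.63 ± 0.69 in PDCUMNT against HM-1 (adjusted p = 0.0439), with arrays from -0.89 to 4.66; without array 2, 3 or 4 it was at 2.36, 2.15 and 2.39 and did not pass. Lap3, a leucine aminopeptidase, was at 1.20 ± 0.31 in ZFCUMNT against #4 (B6) (adjusted p = 0.0463), where 0.935% of all features were called; without array 1, 3 or 4 it was at 1.24, 0.99 and 1.09 and did not pass. Of 9 sensors of nucleic acids and their regulators 1 passed. Adar, an RNA-editing enzyme, was at -2.77 ± 0.65 in ZFCUMNT against HM-1 NT (adjusted p = 0.0486; 0.292% of all features called there), with arrays from -6.05 to -0.56; the call was lost without array 3 (-1.87) or array 4 (-2.77). The fixed rule also named Irf1, a transcription factor of the interferon response, the lysosomal protease gene Ctss, Oas1h and the MHC class I heavy chain H2-K1, which passed nowhere.

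ZFCUMNT against PDCUMNT held 3 of the 6 list calls beside that of Ifi35, out of 76 list values tested there (3.95%), where 118 of 15469 features were called (0.763%). The median of the MHC class I and antigen processing list was 0.22 there, that of receptors and signalling 0.27 and that of the effectors 0.03, against 0.11 over all features. Psmb8, an immunoproteasome subunit, was at 1.40 ± 0.41 and did not pass. Against HM-1, ZFCUMNT and PDCUMNT were at 0.28 and 0.25 for Trim25, 0.14 and 0.11 for Psme1 and 0.11 and 0.01 for Ifngr1. Arrays 3 and 4 of ZFCUMNT against PDCUMNT had a rank correlation of -0.0012. With 1 array of this comparison left out, the calls of Ifi35 and Ifngr1 were lost without array 1 or array 3. That of Psme1 was lost without array 4, and that of Trim25 was kept without each array. In B6PGA against HM-1, where B2m and Ifitm3 passed, no list gene was called and the medians were 0.01 for MHC class I and antigen processing, 0.26 for receptors and signalling and -0.16 for effectors, against -0.04 over all features. H2-K1, a heavy chain that pairs with B2m, was at 0.98 ± 0.36 there, with 4 positive arrays (1.14, 1.23, 1.09 and 0.49), and did not pass. Tap1 (-0.25), which carries peptides to MHC class I, and Tapbp (-0.12), its link to it, did not either.

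Over 12 comparisons, which share lines, the values of B2m and H2-K1 had a Pearson correlation of 0.65, and those of B2m with Tap1 and Tapbp -0.29 and -0.18. Ifitm1, Ifitm2 and Ifitm10 belong to the same gene family as Ifitm3. Over 13 comparisons Ifitm3 had a correlation of -0.35 with Ifitm1, 0.16 with Ifitm2 and -0.27 with Ifitm10, and none of these 3 passed anywhere. In B6PGA against HM-1 they were at -0.55, 0.42 and -0.25. Genes of a family can be similar in sequence, and how far a cDNA probe separates these was not tested. Ifi35 and Nmi had a correlation of 0.54 over 12 comparisons. Among the 4 genes the correlations ran from -0.35 (Bst2 and Ifi35) to 0.56 (B2m and Bst2).

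The genes most like each of the 4 over the comparisons were named by the highest Pearson correlation among 6452 genes for B2m and 6451 for the others, which describes these points only. For B2m they were Col3a1 (0.917 over 12 comparisons), a fibrillar collagen of fibroblasts, App (0.852), the amyloid precursor, and Map3k4 (0.833). For Ifitm3 they were Rrbp1 (0.876 over 13), a ribosome-binding protein of the endoplasmic reticulum, S100a11 (0.851), a calcium-binding protein, and BC031181 (0.83). For Bst2 they were Hinfp (0.821), a histone gene regulator, Cela2a (0.80) and Utf1 (0.796), a factor of undifferentiated ES cells. For Ifi35 they were Fbf1 (0.887), Lpar2 (0.865), a lysophosphatidic acid receptor, and Gapdh (0.864), a glycolytic enzyme. Gapdh was at 0.91 ± 0.32 in ZFCUMNT against PDCUMNT and did not pass.

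Markers of fibroblasts, which also serve as feeder cells for ES lines, moved with B2m. The marker lists were chosen with earlier results of these data known, so their values are a description. In B6PGA against HM-1 the 37 measured markers had a median of 0.90 against -0.04 over all features, with 34 positive values. Of the 37 markers 10 were called, all positive, against 0.494% of all features, and Col3a1 was at 1.64 ± 0.25 (limma, Benjamini-Hochberg adjusted p = 0.000176). Relative to the mean of the 7 lines the list's median was 0.43 in B6PGA, 0.10 in #4 (B6), 0.09 in HM-1 NT, -0.03 in ZFCUMNT, -0.19 in B6NT, -0.24 in HM-1 and -0.28 in PDCUMNT. Over the comparisons the list's median had a correlation of 0.82 with B2m, which was 0.59 without B6PGA against HM-1, and of 0.45 with Ifitm3, which was 0.17 without it. The correlation was 0.21 with Bst2 and -0.16 with Ifi35. In the comparisons where Bst2 and Ifi35 passed, the list's median was 0.07 (PDCUMNT against HM-1) and 0.20 (ZFCUMNT against PDCUMNT), with 0 of 37 markers called. None of 10 white blood cell markers passed in 122 limma tests, 8 of which had an unadjusted p under 0.05. Of 21 undifferentiated ES cell markers 7 were called somewhere, in 17 of 267 values (6.37%, 10 positive and 7 negative). Fibroblast markers had 18 of 467 (3.85%) and all features 0.532%. The ES cell list had a median of 0.19 and 1 call, a negative one, in B6PGA against HM-1. Its median had a correlation of -0.02 with B2m, -0.40 with Ifitm3, 0.07 with Bst2 and 0.13 with Ifi35. More cells of a type and more RNA per cell cannot be told apart in bulk RNA, and the part of other cells in the values of B2m and Ifitm3 was not tested.

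**Figure D4:**
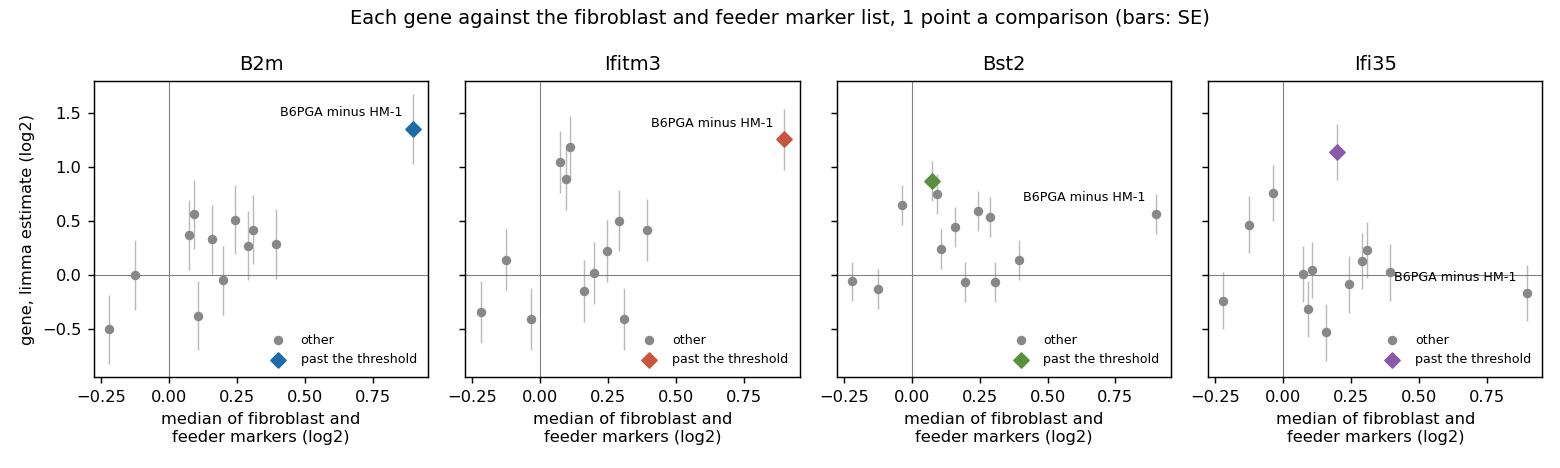
Limma estimate of each gene (vertical axis, log2, SE bars) against the median of the 37 fibroblast and feeder markers (horizontal axis, log2), 1 point a comparison. The point of B6PGA minus HM-1 lies apart at a list median of 0.90, with B2m at 1.35 and Ifitm3 at 1.26, and Bst2 (0.57) and Ifi35 (-0.17) lower.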

How the data were processed

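The deposited table holds ratios of both channels of each array, per the file headers 1 column per array. The authors' image analysis, background correction and normalization are not given in the sources used here. Per the labels, 20 µg of total RNA was reverse transcribed and indirectly labelled. The protocol text also mentions organs and a pooled animal reference, while the channel labels, which were used, name an ES line in both channels. The log2 scale of the deposited values was settled from them: on 47 of 52 arrays the most frequent value lay within 0.0015 of the top value minus the log2 of 100000, and on 5 it lay 1 above. The top value (15.72 to 17.35, on 20 to 174 probes per array, against 10.66 for the highest other value) was therefore taken as a placeholder and treated as not measured, a choice made with the data in view. Array medians ran from -0.209 to 0.469.

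Probes of a symbol were averaged (12771 probes with 1 symbol, 8023 with none, 17053 features). Limma 3.58.1 in R 4.3.3 fitted 13 comparison coefficients and a dye term per feature over 52 arrays, tested where at least 3 of 4 arrays in both orientations had values, with Benjamini-Hochberg adjustment within each comparison over all features and a threshold of 0.05. The number of arrays limits the precision. A second fit gave 7 line levels relative to their mean. Fits were tested on simulated data. Alternatives were unturned ratios, kept top values, subtracted array medians, scaled arrays, array weights, separate fits, no dye term, single probes, 4 measured arrays, a replicate block and each array left out. List genes were named if called, then by mean absolute value until 10 were named. The genes and lists were chosen with earlier results of these data known.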

Additional observations from a re-analysis of the deposited data

Results flagged for a closer look

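B2m differed in sign between HM-1 NT against HM-1 and B6NT against #4 (B6). Its 4 arrays were at 0.03, 0.05, 0.19 and 0.82 in the first comparison, and at -0.15, -0.37, -0.78 and -0.69 in the second, so that every array of one lay above 0 and every array of the other below it. The estimates of 0.27 and -0.50, each ± 0.32 (SE), differ by 0.773 on the log2 scale. The direction of the first comparison rests on the labels alone. This difference was not tested, and neither estimate passed the threshold.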

How the results depend on the processing

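Some calls depended on the setting. With ratios left unturned there were 0 calls of the 4 genes by limma (1 value with an unadjusted p under 0.05) and 17 of list genes, and Adar (1.96), Samhd1 (-1.68), Lap3 (-0.57) and Psme1 (-0.25) changed sign in the comparisons that called them. The called values of the 4 genes were 0.08 for B2m, 0.10 for Ifitm3, 0.46 for Bst2 and 0.36 for Ifi35 with this setting, which sets aside the dye labels, and 25 of the 51 values of the 4 genes moved by more than the SD of their arrays. With each comparison fitted alone there were 0 and 0 (16 and 98 values with an unadjusted p under 0.05). Without the dye term there were 2 and 2 calls. With array weights there were 8 and 10, against 4 and 6 in the fit reported. With arrays scaled to equal spread the 4 genes had 6 calls. With all 4 arrays required, list genes had 4 calls. Numbered arrays were not alike (mean correlation of deviations -0.00082, over 0.1 in 0% of 312 pairs). The replicate block, with the array number as a term, left the 4 calls of the 4 genes and took list calls to 4. With 1 array left out in turn, the 4 genes had 2 to 6 calls and list genes 2 to 8, and the 4 genes had 2 whenever an array of B6PGA against HM-1 was left out, a design with fewer arrays. The call of Ifi35 was also lost with array medians subtracted, arrays scaled, array weights or no dye term, and that of Bst2 without the dye term. The 28 line levels moved by less than the residual SD, a wide margin (0.60 for B2m), in all 7 alternatives and 52 left-out arrays. HM-1 was lowest for Ifitm3 and Bst2 in 60 of 60 settings, and B6NT was lowest and B6PGA highest for B2m in 59 of 60, the exception being unturned ratios (lowest #4 (B6), highest PDCUMNT). B6PGA was highest for Ifitm3 in 55 of 60, otherwise #4 (B6), and PDCUMNT was lowest for Ifi35 in 55 of 60, otherwise B6PGA or #4 (B6). Of the 60 settings 52 left out 1 array each and so share most arrays, and 1 used unturned ratios, which set aside the dye labels. The counts are therefore a description and not separate tests. For other changes of calls the cause was not tested. Signal over background is not given in the table, so its part in the spread is unknown.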
